A study of Arabidopsis thaliana with 12 samples.

Results

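CUTA (AT2G33740) was named by 1 of the 3439 probes of the array table, and that probe listed no other gene. It was chosen by the annotation of the probe, which named CUTA alone, and because earlier results of these same samples had shown a large decrease in psae2 and a shift between sets of samples. Its level, its difference between the genotypes, its rank and its shift between sets are therefore descriptions, given without a test.

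The series holds total RNA of Arabidopsis thaliana from 2 groups: 6 samples of the psae2 mutant, which lacks PSI-E2, a stromal subunit of photosystem I, and 6 of the wild type (WT). Both genotypes were of ecotype Columbia 0. Titles number the samples 1 to 6 within each genotype, and nothing in the labels says what a number marks or whether samples came from separate plants. The sources used here give no tissue, age or growth conditions, and neither the kind of psae2 allele nor the number of lines behind it.

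CutA proteins are small proteins found from bacteria to plants and animals, and they take their name from a copper tolerance locus of Escherichia coli. The Arabidopsis protein carries a plastid targeting sequence and binds copper. In the chloroplast, copper serves plastocyanin, which passes electrons to photosystem I, and a copper/zinc superoxide dismutase, which removes superoxide formed near photosystem I. Whether and how CUTA takes part in copper handling in the plastid is not settled.

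As deposited, on a linear intensity scale, CUTA read 0.939, 1.10, 0.747, 0.751, 0.551 and 0.635 in psae2 samples 1 to 6. In WT samples 1 to 6 it read 2.65, 3.02, 1.93, 2.25, 1.38 and 1.50. The genotypes did not overlap: the highest psae2 sample, number 2, lay below the lowest WT sample, number 5. CUTA lay above the floor in all 12 samples, at 8.27 to 11.0 times the floor of its array in psae2 and at 19.5 to 37.5 times in the WT, where the floor is the level that 5% of the positive values of an array lie below. In neither genotype did the floor set a CUTA value.

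Columns were not on a common scale, with array medians between 0.304 and 0.448 and array sums between 2972 and 3610, so values were also quantile-normalized on the log2 scale. Normalized CUTA was at -0.30, -0.021, -0.44, -0.42, -0.80 and -0.63 in psae2 samples 1 to 6. It was at 1.33, 1.49, 1.06, 1.25, 0.61 and 0.76 in WT samples 1 to 6. The genotypes again did not overlap, and the highest psae2 sample lay 0.63 log2 units under the lowest WT sample. Of the 3009 entries tested (probes, with the 2 of 1 gene averaged), 5.88% had all psae2 samples below all WT samples. As CUTA was chosen for its decrease, nothing is read from its place in that share.

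**Figure D1:**
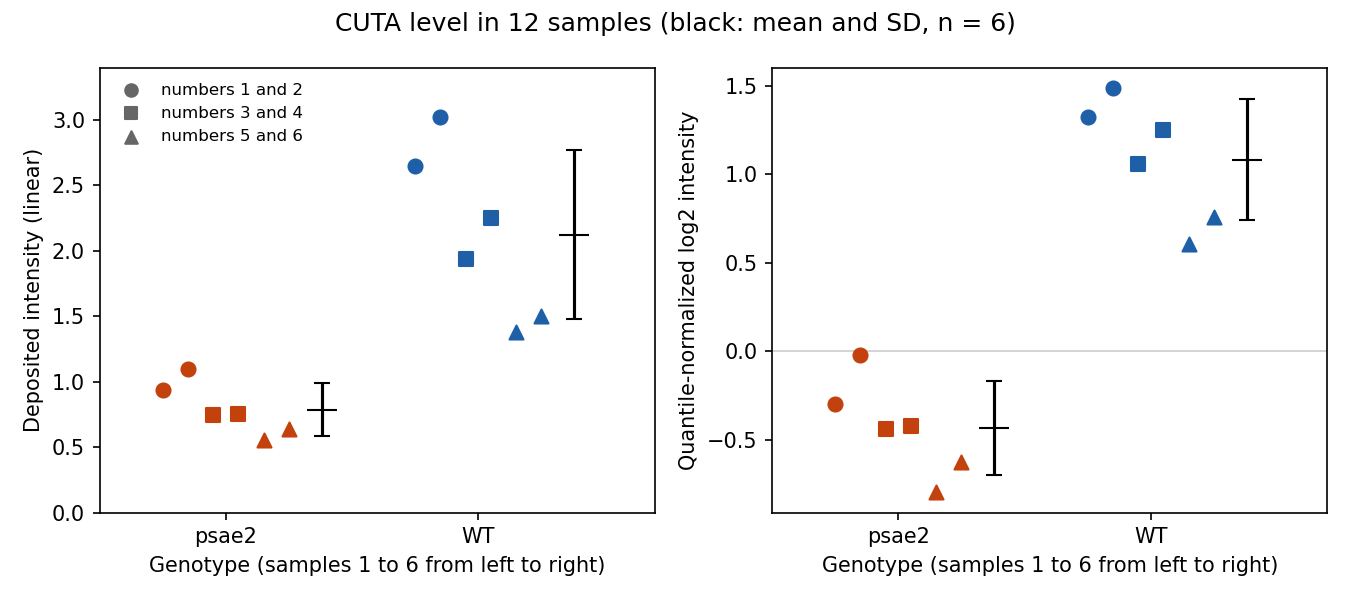
CUTA in each of the 12 samples, psae2 left of WT, as deposited intensity (left) and as quantile-normalized log2 intensity (right). Each point is 1 sample, the marker shape gives the set of numbers, and black bars give mean and SD (n = 6). All 6 psae2 samples lie below all 6 WT samples on both scales, and within each genotype numbers 5 and 6 are the lowest.

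The mean normalized level was -0.44 ± 0.27 in psae2 and 1.08 ± 0.34 in the WT (SD, n = 6 each). The log2 difference, psae2 minus WT, was -1.52, which is a level 2.86-fold lower in psae2, or 34.9% of the WT. Without normalization the mean log2 difference was -1.41, or 37.5% of the WT. Over all entries the median difference was 0.013 after normalization, which brings it near 0 by construction, and 0.17 with the values as deposited, so the whole table was shifted in the opposite direction to CUTA before scaling. Fewer cells that express a gene and less of its RNA per cell cannot be told apart in total RNA.

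The size of the difference varied little between numbers. Taken between samples of the same number, the normalized log2 difference was -1.62, -1.51, -1.50, -1.68, -1.41 and -1.39 for numbers 1 to 6. The deposited psae2 intensity was 35.4%, 36.3%, 38.6%, 33.3%, 39.9% and 42.3% of that in the WT sample of the same number. The factor was thus similar at each number. That CUTA was lower in psae2 at every number follows from the lack of overlap between the genotypes. Numbers of a set may be technical repeats, so these may not be 6 separate comparisons. The SD of its 6 differences was 0.115, against a median of 0.226 over all entries, and 14.4% of entries had a smaller SD. All entries include dim ones, and no comparison was made with entries of like intensity. By set, the mean difference was -1.57 for numbers 1 and 2, -1.59 for 3 and 4 and -1.40 for 5 and 6.

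Among the 602 tested probes of 1 gene, CUTA had the second largest decrease in psae2 (rank 2). AT5G52810 stood above it, with a log2 difference of -1.82 and differences by number from -1.995 to -1.62. Those of CUTA ran from -1.68 to -1.39, so the ranges overlap, yet at each of the 6 numbers the decrease of AT5G52810 was the larger. AT3G52070 came next below, at -1.10, and differed by number from -1.73 to -0.65. At numbers 1 and 2 its decrease was larger than that of CUTA, and at the other 4 it was smaller.

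AT1G21350, at rank 4, owed its place to 1 sample. It read 7.44 in WT sample 4, against 0.0644 to 0.196 in psae2 and 0.0682 to 0.110 in the other WT samples. Its log2 difference was -1.06 over all samples and -0.046 without WT sample 4. No single sample had that weight for CUTA, which kept rank 2 when any 1 of the 12 samples was left out, with differences from -1.61 to -1.44.

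**Figure D2:**
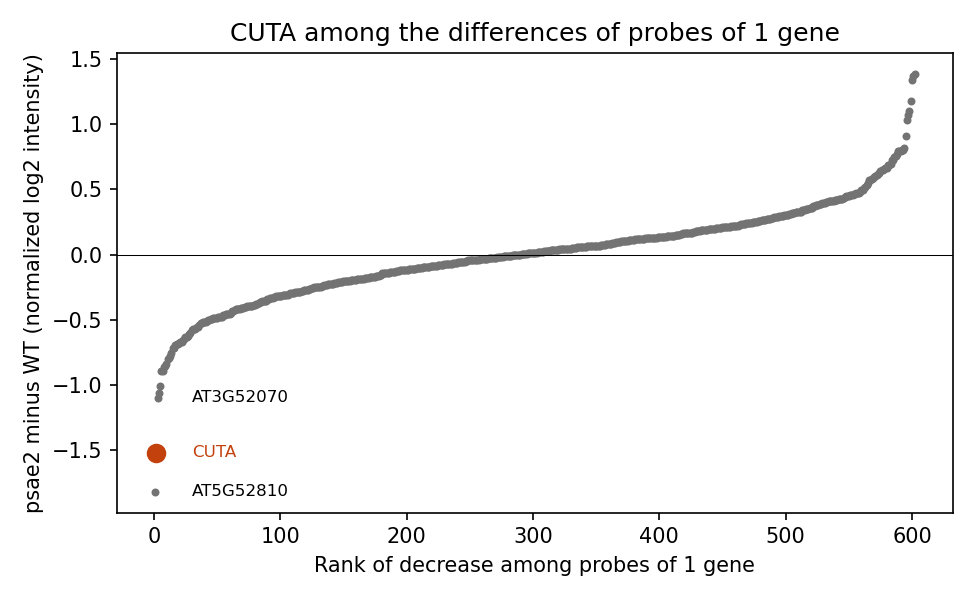
Log2 difference, psae2 minus WT, of the 602 tested probes of 1 gene (vertical axis, normalized log2 intensity), ordered by rank of decrease (horizontal axis). CUTA, the large point at -1.52, has rank 2, between AT5G52810 at -1.82 and AT3G52070 at -1.10.

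Among all 3009 entries CUTA had rank 8. Of the 7 entries with a larger decrease, 5 were probes without a listed gene, 1 listed several genes and 1 was AT5G52810. That rank moved with how dim values were treated and with the samples used. CUTA had rank 4 when an offset was added to all values instead of a floor, 17 with the floor at the 1st percentile and 23 with zeros set to missing, while its own log2 difference was -1.42, -1.52 and -1.50 in these settings. It had ranks 5 to 10 with 1 sample left out, 16 without numbers 1 and 2 of both genotypes and 14 without numbers 3 and 4. Its rank among probes of 1 gene was 2 with the offset, 3 with the lower floor and 6 with zeros missing. It was 5 without numbers 1 and 2 of both genotypes, where AT3G15490, AT5G52810, AT1G42960 and AT1G21350 had the larger decreases.

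Within each genotype CUTA also differed between sets of numbers. In psae2, the mean normalized level was -0.16 in samples 1 and 2, -0.43 in 3 and 4 and -0.71 in 5 and 6. The WT means were 1.41, 1.16 and 0.68 for the same sets. In both genotypes each sample of the first set lay above each of the second, and each of the second above each of the third. Samples of a set differed from each other by 0.015 to 0.28 in psae2 and by 0.15 to 0.19 in the WT. The steps between neighbouring sets were -0.27 and -0.28 in psae2 and -0.25 and -0.47 in the WT, so in psae2 they were about the size of the widest difference within a set.

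Relative to numbers 1 and 2, CUTA in numbers 5 and 6 was lower by a log2 difference of -0.55 in psae2 and -0.72 in the WT. The medians of all entries for the same differences were 0.030 in psae2 and 0.0086 in the WT. In psae2, 13.6% of entries had a larger decrease than CUTA between these sets, and in the WT 4.12% had. Among probes of 1 gene CUTA had rank 98 of 602 in psae2 and rank 22 of 602 in the WT. The shift of CUTA between sets was thus nearer the edge of the distribution in the WT than in psae2. The gap between the genotypes in this shift was 0.17, against a median absolute gap of 0.28 over all entries, and 33.5% of entries had a smaller one.

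The shift from numbers 1 and 2 to 3 and 4 was smaller, at -0.27 in psae2 and -0.25 in the WT, and 17.8% of entries in psae2 and 17.9% in the WT had a larger decrease. It rested on few samples. Without psae2 sample 1 it was -0.41 in psae2, and without psae2 sample 2 it was -0.14. In the WT it was -0.17 without WT sample 2 and -0.15 without WT sample 3.

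Levels of the whole arrays moved in the same direction as CUTA. The mean array median of numbers 5 and 6 was 78.3% of that of numbers 1 and 2 in psae2 and 80.4% in the WT, while deposited CUTA was at 58.2% and 50.8%. Their part in the shift of CUTA was not tested beyond the scaling. After centring arrays on their medians, the shift from numbers 1 and 2 to 5 and 6 was -0.43 in psae2 and -0.66 in the WT, and without normalization it was -0.78 and -0.98. The direction was the same under each of these scalings and the size was not. The labels give the numbers no order in time or treatment.

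**Figure D3:**
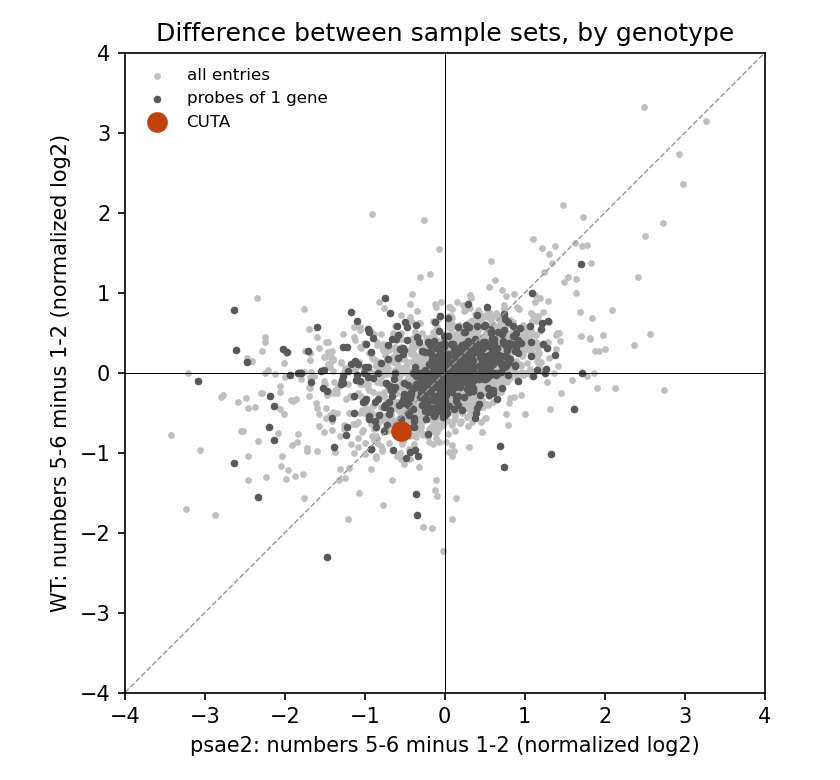
Mean of samples 5 and 6 minus mean of samples 1 and 2, on the normalized log2 scale, in psae2 (horizontal axis) and in the WT (vertical axis). Each point is 1 of 3009 entries, dark points are probes of 1 gene, and the dashed line marks equal differences. CUTA, the large point, lies at -0.55 and -0.72, and 70 other entries lie lower on both axes.

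Between numbers 1 and 2 and numbers 5 and 6, 70 other entries (2.33%) had larger decreases than CUTA in both genotypes. Of all entries, 1.93% had the 3 sets separated in the order of CUTA in both genotypes. Set means stepped down at both steps in both genotypes in 238 entries (7.91%). With all psae2 samples below all WT samples as well, 12 entries were left (0.399%), of which 3 were probes of 1 gene. These were CUTA, CRR21 and AT3G57120. The lack of overlap alone was found in 5.88% of entries. As CUTA was chosen for its decrease and its shift between sets, nothing is read from its place in these shares. CRR21, an editing factor for a subunit of the plastid NDH complex, had a log2 difference of -0.40, and AT3G57120 one of -0.46.

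The 5 probes of 1 gene with profiles nearest to CUTA over the 12 samples were AT5G66090, AT5G52810, CCL, AT3G52070 and AT3G03890. Likeness was the root mean square difference between profiles, each centred on its own mean, and ran from 0.391 to 0.469 log2 units for these 5, against a median of 0.850 over the 601 other probes of 1 gene. All 5 were lower in psae2, which the measure favours, as the genotype difference makes up most of the CUTA profile. They are therefore given without a test.

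CCL, named CCR-like in the reference, was the gene of the 5 that came nearest to CUTA in how it varied within the genotypes. With each profile centred within its genotype, which takes out the genotype difference, CCL differed from CUTA by 0.118 (root mean square, log2 units) and had rank 5 of the 601. The median over these 601 was 0.352, and the other 4 genes lay between 0.244 and 0.392. Normalized CCL was at 1.21, 1.38, 0.98, 1.13, 0.64 and 0.79 in psae2 samples 1 to 6. In WT samples 1 to 6 it was at 1.64, 2.07, 1.72, 1.89, 1.32 and 1.60. The genotypes overlapped, since psae2 sample 2 lay above WT sample 5, and the log2 difference of -0.69 was smaller than that of CUTA. From numbers 1 and 2 to 5 and 6 its level differed by -0.58 in psae2 and -0.40 in the WT.

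The other 4 shared the genotype difference with CUTA and less of the rest. AT5G66090 had a log2 difference of -1.01, with a shift from numbers 1 and 2 to 5 and 6 of -1.27 in psae2 and of -0.039 in the WT. AT3G52070 had shifts of opposite sign, 0.66 in psae2 and -0.33 in the WT. AT5G52810 had 0.29 in psae2 and -0.0020 in the WT, so the gene with the larger decrease in psae2 did not have the set pattern of CUTA. AT3G03890, with a log2 difference of -0.72, had shifts of -0.65 in psae2 and -0.22 in the WT.

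**Figure D4:**
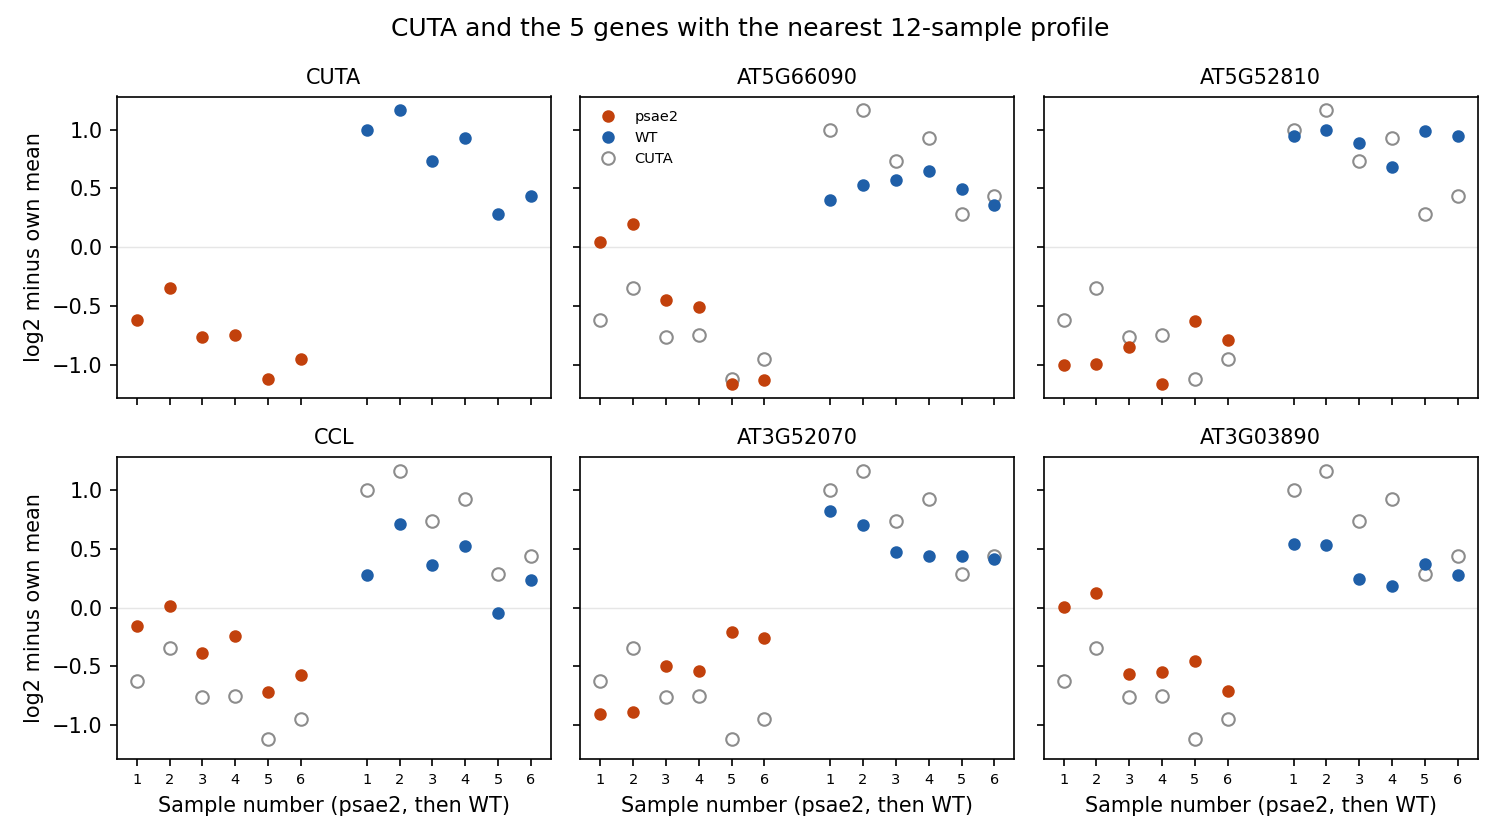
Normalized log2 intensity minus the 12-sample mean of the gene, for CUTA and the 5 probes of 1 gene with the nearest profiles. In each panel the 6 psae2 samples stand left of the 6 WT samples, filled points are the gene and open grey points repeat CUTA. CCL comes nearest to the pattern of CUTA within both genotypes, with a smaller genotype difference of -0.69.

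Few genes of copper handling could be read beside CUTA. Of 35 further loci listed for copper transport, copper chaperones, copper enzymes and metallothioneins, 1 was named alone by a probe and 34 by none. The gene named alone was CCS, the copper chaperone that loads copper/zinc superoxide dismutase. A probe of its own is here a probe whose annotation names that gene alone. As 1877 of the 3439 probes list no gene, loci that no probe names may still have been on the array. Plastocyanin, the superoxide dismutases, the copper-transporting ATPases of the plastid and the copper regulator SPL7 were not named by a probe and were not analysed here. Of 21 loci for plastid iron and iron-sulfur clusters, 0 had a probe of their own. Of 16 for plastid antioxidants and thioredoxins, 2 had one and 4 more were on probes that list several genes.

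Deposited CCS was at 0.151, 0.170, 0.146, 0.148, 0.181 and 0.188 in psae2 samples 1 to 6. In WT samples 1 to 6 it was at 0.183, 0.141, 0.126, 0.145, 0.142 and 0.157. The signal was dim and the genotypes overlapped. The normalized level was -2.74 ± 0.35 in psae2 and -2.65 ± 0.19 in the WT (SD, n = 6 each). The log2 difference was -0.09 (adjusted p = 0.707 in limma), or 0.14 when taken from the values as deposited. The log2 difference of CUTA was -1.52, and a test between the genes was not made.

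The 2 plastid antioxidant genes were NTRC, an NADPH-dependent thioredoxin reductase of the plastid, and AT3G52960, which the reference does not name. NTRC had a normalized level of -1.25 ± 0.20 in psae2 and -1.47 ± 0.057 in the WT (SD, n = 6 each), a log2 difference of 0.22 (adjusted p = 0.101 in limma). With the values as deposited the difference was 0.42 and passed (adjusted p = 0.00586 in limma). On that scale the median difference over all entries was 0.17. Of the 3009 entries, 711 passed as higher in psae2, against 358 after normalization. AT3G52960 was at -2.64 ± 0.89 in psae2 and -1.78 ± 0.13 in the WT (SD, n = 6 each), a log2 difference of -0.85 (adjusted p = 0.0858 in limma). It passed without psae2 sample 1 (-1.05, adjusted p = 0.0324), without psae2 sample 2 (-1.05, 0.0319) and without numbers 1 and 2 of both genotypes (-1.41, 0.00863). Without numbers 5 and 6 of both genotypes the difference was -0.29 (adjusted p = 0.466 in limma), so its size rests largely on those samples.

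AT3G52960 had a strong set pattern in psae2. Deposited values were 0.385, 0.387, 0.197, 0.164, 0.0491 and 0.0473 in psae2 samples 1 to 6, the last pair under the floor. In WT samples 1 to 6 they were 0.266, 0.276, 0.285, 0.265, 0.270 and 0.260. The other 4 psae2 samples lay below all WT samples, also after normalization. Samples 1 and 2 of psae2 lay above all WT samples as deposited, but after normalization, at -1.67 and -1.66, they lay below WT sample 5 at -1.64 and above the other WT samples. At numbers 1 and 2 psae2 was thus the higher genotype on both scales, and at the other 4 numbers the lower. CUTA was lower in psae2 in every set, which follows from the lack of overlap between the genotypes. As CUTA was chosen for its decrease, AT3G52960 is not set against it.

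Of these 3 listed genes, 0 passed the threshold of 0.05 on adjusted p in limma, 2 had an unadjusted p under 0.05, and 0 passed with sets averaged or with the number as a block. Over all entries 22.3% passed, 10.4% lower and 11.9% higher in psae2. With sets averaged 2.63% passed, and with the sample number as a block 33.6% did. With 3 genes measured, the count says little about copper or redox genes in general.

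The labels name no tissue. Of 8 genes taken as marks of photosynthetic tissue, 6 had a probe of their own, and all 6 lay above the floor in all 12 samples. Their log2 differences ran from -0.18 for LHB1B2 to 0.32 for PRK. As CUTA was chosen for its decrease, they are not set against it. Of the 6, PRK alone, phosphoribulokinase of the Calvin cycle, passed in limma (adjusted p = 0.0412), where 22.3% of all entries did. PRK did not pass with sets averaged (adjusted p = 0.317 in limma) or with the number as a block (0.0534). With that block LHB1B2 (0.0407) and PSBW (0.046) passed, where 33.6% of all entries did. With 6 genes, these counts say little beside those shares. Of 7 genes for root, flower and seed, 0 had a probe of their own, so other tissues were not checked. In gene order, none of the 10 genes on either side of CUTA had a probe of its own, and 1 was on a probe that lists several genes, so levels of its neighbours were not analysed here.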

How the data were processed

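The authors deposited intensity values on a linear scale for 12 samples. The sources used here do not say how the arrays were made, scanned, background-corrected or scaled. Groups and numbers come from the titles, and all columns belonged to a sample. Gene names come from the platform annotation, which listed 1 gene for 692 of 3439 probes, and 691 of these matched a reference gene (TAIR10.1). Several genes were listed for 870 probes and none for 1877. The build behind the annotation is not named, so no coordinates are given.

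Here values under a floor (per array, the 5th percentile of values above 0, which was 0.0638 to 0.105) were set to it, log2-transformed and quantile-normalized. Probes that never reached the floor (429) were left out. Differences were fitted with limma 3.58.1 (lmFit, eBayes) in R 4.3.3 over 12 samples with no covariate and Benjamini-Hochberg adjustment over 3009 entries. The procedure was tested on simulated data with independent samples. That test could not show the effect of sets of alike samples on the p-values. Figures used matplotlib 3.10.9.

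Samples of the same number in both genotypes deviated together from their group means, with correlations of 0.34 to 0.53 at all 6 numbers, and 12 of 12 samples correlated best with their own number. On this ground, which the labels do not back, numbers were taken to pair samples. Numbers 1 and 2, 3 and 4, and 5 and 6 may be technical repeats, so p-values over 12 samples measure only the spread between these arrays and may be too small.

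CUTA, the sets and the gene lists were chosen with earlier results of these data known. Named genes were CUTA, the 5 probes of 1 gene with the nearest profile, those next to it in rank of decrease (up to 2 on each side), listed genes with a probe of their own and neighbours in gene order. CRR21, AT3G57120, and the genes above CUTA in rank under other settings were named after their values were seen.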

Additional observations from a re-analysis of the deposited data

Results flagged for a closer look

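In 20 sets of 6 samples (10 genes named here by rule, each genotype apart), 2 had 1 sample set apart by more than the limit of Dixon's ratio, where chance gives about 1 in 20. On the normalized log2 scale AT1G21350 had a ratio of 0.887, with WT sample 4 at 2.88 and the remaining WT samples between -3.64 and -2.90. AT5G52810 had a ratio of 0.643, with the same WT sample 4 at 0.76 and the remaining ones between 0.97 and 1.08. Neither genotype had such a sample for CUTA.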

How the results depend on the processing

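The log2 difference of CUTA stayed negative in all alternatives run, from -1.61 to -1.44 with 1 sample left out. As the genotypes do not overlap, leaving out samples could not change its sign. The replicate block left it at -1.52 by design, since each number occurs in both genotypes. With the floor at the 1st percentile the rank of CUTA among probes of 1 gene was 3. It was 6 with zeros missing, 5 without numbers 1 and 2, and 2 otherwise, also with 1 sample left out. Without normalization the shifts from numbers 1 and 2 were -0.44 (3 and 4) and -0.78 (5 and 6) in psae2, and -0.44 and -0.98 in the WT; the scaling itself makes this change. With 1 sample left out these 4 shifts were -0.41 to -0.14 and -0.70 to -0.42 in psae2, and -0.35 to -0.15 and -0.81 to -0.64 in the WT. The 5 nearest genes were the same 5 under each scaling and floor tried. Entries lower in psae2 numbered 313 and those higher 358. As deposited these were 135 and 711, and with arrays centred on their medians 418 and 289. Without numbers 3 and 4 they were 130 and 154, and with the replicate block 484 and 526. They were 42 and 37 with sets averaged, and 28 and 16 with sets averaged and the set as a block. With the set as a random block they were 89 and 92. With 1 sample left out they ran from 253 to 318 and from 297 to 352. Beyond fewer samples and the scaling, the cause of these changes was not tested. Of the 3 listed genes 0 passed, 1 did as deposited (NTRC) and without numbers 1 and 2 (AT3G52960), and 0 to 1 with 1 sample left out. CCS turned to 0.14 as deposited and 0.038 without numbers 1 and 2. The replicate block changed no other call reported here than those of PRK, LHB1B2 and PSBW. Dim signal limits CCS and AT3G52960.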

Other observations

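Among all entries, 9 had a profile nearer to CUTA than the nearest probe of 1 gene: 7 without a listed gene and 2 that list 2 genes each. The nearest was probe 2235, without a listed gene, with a root mean square difference of 0.187 and a log2 difference of -1.35. It was named after its values were seen.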
